A study of Mus musculus with 12 samples.

Results

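The genes described here are 10 genes by which the interneurons of the striatum, and of the forebrain in general, are usually recognised: Sst, Npy, Nos1, Pvalb, Chat, Slc5a7, Th, Calb2, Cck and Vip. They were chosen by gene symbol, and all 10 were found among the 54833 genes of the deposited count table. The mice were wild-type C57BL/6 males, either young (8–10 weeks) or aged (20–22 months). Intracerebral hemorrhage (ICH) was induced with type IV collagenase, an enzyme that digests vessel walls, and sham mice underwent the operation without collagenase. Tissue around the hematoma in the ipsilateral caudate putamen, or the matching tissue of sham mice, was taken 24 h later. RNA was sequenced from 12 samples, 3 for each age and operation, and each sample pooled 2 or 3 mice, so that the spread between single mice was not measured. The libraries held between 28410896 and 37785160 counts.

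Most striatal neurons are GABAergic projection neurons, and interneurons are a minority whose axons stay within the striatum. One class releases the peptides somatostatin (Sst) and neuropeptide Y (Npy) and makes nitric oxide with neuronal nitric oxide synthase (Nos1). The parvalbumin (Pvalb) class fires fast and inhibits projection neurons. The large cholinergic interneurons make acetylcholine with choline acetyltransferase (Chat) from choline taken up by the transporter Slc5a7. Smaller classes contain tyrosine hydroxylase (Th), the enzyme that opens dopamine synthesis, or the calcium-binding protein calretinin (Calb2). Cholecystokinin (Cck) and vasoactive intestinal peptide (Vip) are better known from interneurons of the cortex, and Cck is also made by many cortical excitatory neurons. Pvalb, Npy and Sst are likewise found in cortical interneurons, so that none of these genes marks the striatum by itself.

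The promoters of the genes were searched for the cAMP response element (CRE), the palindrome TGACGTCA that binds the transcription factor CREB, which is well known from the somatostatin gene. RefSeq promoter sequences of GRCm38.p6 matched 9 of the 10 genes, and the 250 bases before each start site were searched on both strands for the full site TGACGTCA and for its core TGACG or CGTCA, which every full site contains. The stretches of 30 bases around the sites are shown. Sst, from which the element is known, held the full site, Vip and Cck held only the core, and Npy held neither. The site is in capitals, and each sequence runs 5′ to 3′ along the gene.

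Sst: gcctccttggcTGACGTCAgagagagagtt
Th: cagaggggcttTGACGTCAgcctggccttt
Vip: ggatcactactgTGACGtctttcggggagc
Cck: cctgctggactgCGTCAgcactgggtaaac
Nos1: aaaccagccatgCGTCAggcttggcttcag
Chat: gtccaatctcaaCGTCAccaccacctccaa

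The Sst stretch lies at chr16:23890874-23890903 on the minus strand, inside an exon of the GENCODE annotation, and its full site begins 48 bases before the RefSeq start. The Th stretch lies at chr7:142900022-142900051 on the minus strand with the full site 45 bases before the start. The core alone begins 79 bases before the start of Vip (chr10:5639127-5639156, plus strand) and 47 bases before that of Cck (chr9:121495724-121495753, minus strand). Those of Nos1 (chr5:117866697-117866726, plus strand) and Chat (chr14:32466063-32466092, minus strand) begin 130 and 171 bases before the start. A full site was present in 2 of the 9 genes and the core in 6, which include those 2. Of 32851 mouse promoter windows of the same length, 1.55% held a full site and 17.8% the core. The element is known from the Sst gene, so that the Sst match does not stand apart from the choice of motif. These shares are therefore not a test. These letters were not in the windows of Npy, Pvalb and Slc5a7. A match describes the letters only, and binding was not measured here.

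Markers of other cells were examined before the interneuron genes. The mean log2 CPM (counts scaled to library size by the TMM method) of 14 projection neuron genes, such as Drd1, Drd2, Ppp1r1b and Penk, was between 6.79 and 7.73 in the 6 sham samples. Genes that define striatal projection neurons were thus present in the sham samples, and no other brain region was sequenced for comparison. The same mean was 5.24 in young ICH replicate 2, 4.64 in aged ICH replicate 1 and 5.88 in aged ICH replicate 3, and between 6.54 and 7.16 in the other ICH samples. Markers of cortical excitatory neurons were present too, and the mean of 8 such genes ranged from 5.12 in young ICH replicate 3 to 6.35 in young sham replicate 3. It was above the projection neuron mean in young ICH replicate 2 (6.12) and aged ICH replicate 1 (5.76). In aged ICH replicate 3 it was just below (5.72). These means are of different genes, so that their order does not give shares of cells. Neutrophil genes rose (6 of 8 in young and 5 of 8 in aged ICH mice), as did monocyte and macrophage genes (5 of 8 and 4 of 8) and astrocyte genes (4 of 8 and 3 of 8, with 1 of 8 that fell in aged mice), where 9.89% of all genes tested rose in young and 7% in aged mice. Of 8 oligodendrocyte genes 3 fell in aged (6.15% of all genes) and none in young ICH mice (9.23%). The mean log2 CPM of 8 choroid plexus genes was 6.16 in young ICH replicate 3, 4.56 in aged ICH replicate 1 and 4.92 in aged ICH replicate 2, against at most 3.48 in the other 9 samples, and none of these genes passed the test at either age. The part of these cells in the results was not tested. Each sample is a mixture of cells, and fewer cells of a type and less RNA per cell cannot be told apart.

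All 10 genes passed the filter on low counts. Per length of transcript (FPKM), Sst was highest in young sham mice (151 ± 5.61, mean ± SD, n = 3), with Cck next (126 ± 33.9), and the ranges of these genes overlapped. Npy (68.4 ± 10.6) and Pvalb (35.6 ± 6.60) followed, each apart from its neighbours. Vip (8.94 ± 2.49) was above Nos1 (4.90 ± 1.24) without overlap, and from Nos1 down through Calb2 (4.04 ± 1.31), Slc5a7 (2.32 ± 1.34), Chat (1.33 ± 0.609) and Th (1.23 ± 0.155) each gene overlapped the next. The order was the same in aged sham mice, where Sst (148 ± 17.1) stood apart from Cck (86.5 ± 15.3), and Npy overlapped Pvalb and Vip overlapped Nos1. After ICH, Calb2 moved ahead of Vip in young and ahead of Nos1 in aged mice, and Th ahead of Chat in young mice, in each case with overlapping ranges. The lowest count behind any value was 48, for Th and for Chat.

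**Figure D1:**
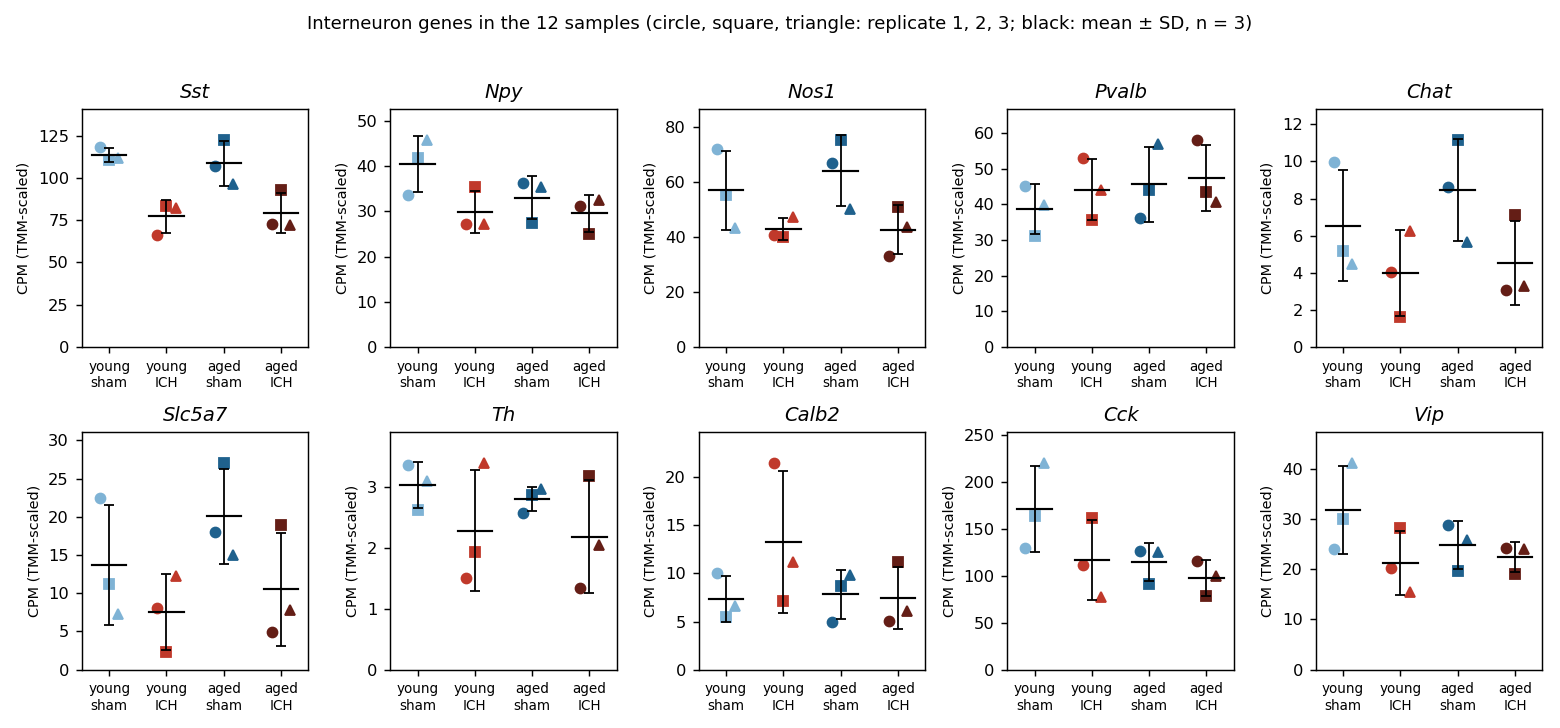
CPM of each of the 10 interneuron genes in the 12 samples, with the group on the x axis, the replicates as circle, square and triangle, and the mean ± SD (n = 3) in black. The Sst values of the ICH samples, at most 92.7, all lie below those of the sham samples, at least 96.3, and for the other 9 genes ICH and sham samples overlap.

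Sst was the gene with the clearest difference between ICH and sham mice. Its CPM was 118, 111 and 112 in young sham mice and 66.2, 83.7 and 82.0 in young ICH mice, and 107, 123 and 96.3 in aged sham mice and 72.6, 92.7 and 72.3 in aged ICH mice. Every ICH sample was below every sham sample, at each age and over both. Sst fell by 31.9% in young mice (log2FC −0.56 ± 0.12 SE, adjusted P = 0.0094, edgeR) and by 27.1% in aged mice (−0.46 ± 0.12, adjusted P = 0.0296). Over both ages it fell by 29.6% (−0.51 ± 0.08, adjusted P = 0.0011). Sst (chr16:23889573-23890958, minus strand, GRCm38.p6) overlaps no other annotated gene.

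The call in young mice held with each of the 12 samples left out in turn. That in aged mice was lost without aged sham replicate 1 (adjusted P = 0.0773, edgeR) or 2 (0.113) and without aged ICH replicate 1 (0.125) or 3 (0.107). The log2FC was between −0.36 and −0.58 over all 12 samples left out in turn. In the fits that lost the call, 1222, 1273, 679 and 1222 of all genes tested were called in aged mice, against 2828 with all samples. When the libraries were scaled to 10 genes of all neurons, such as Map2 and Tubb3, the median of all genes moved to 0.29 in young and 0.19 in aged mice. The log2FC of Sst was then −0.28 (adjusted P = 0.242, edgeR) and −0.26 (adjusted P = 0.347), about as far below that median as before. This scaling shifts all genes nearly alike, so that the distance could hardly change and is not a check on Sst.

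Nos1, the enzyme that makes nitric oxide in the same class of interneurons, was called only when both ages were combined. Its CPM was 72.3, 55.5 and 43.5 in young sham mice, 40.9, 40.1 and 47.4 in young ICH mice, 67.0, 75.4 and 50.2 in aged sham mice and 33.3, 51.0 and 43.7 in aged ICH mice. The lowest sham sample at each age lay within the range of the ICH samples. Over both ages Nos1 fell by 29.4% (log2FC −0.50 ± 0.14, adjusted P = 0.0187), while the log2FC was −0.42 ± 0.20 (adjusted P = 0.174) in young and −0.59 ± 0.20 (adjusted P = 0.0767) in aged mice. The gene spans chr5:117781032-117958840 on the plus strand, and Gm26995 on the opposite strand had 41 counts over all samples.

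Npy, which is released by these interneurons together with somatostatin, had 33.6, 41.9 and 45.8 CPM in young sham mice and 27.2, 35.3 and 27.3 in young ICH mice. In aged mice it had 36.2, 27.5 and 35.3 CPM after sham and 31.2, 24.9 and 32.5 after ICH. The groups overlapped at both ages. The log2FC was −0.43 ± 0.15 in young mice (adjusted P = 0.0702), −0.16 ± 0.15 in aged mice (adjusted P = 0.531) and −0.30 ± 0.11 over both (adjusted P = 0.0556). The call in young mice appeared without young ICH replicate 2 (−0.56 ± 0.16, adjusted P = 0.0327, edgeR) or young sham replicate 1 (−0.55 ± 0.16, adjusted P = 0.0399). The mean of the cortical marker genes was the highest of its group in the former (6.12) and the lowest of its group in the latter (5.75). Npy followed that mean over the 12 samples (r = 0.926), and its part in these calls was not tested.

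The genes of cholinergic interneurons had the widest spread. Chat had 9.98, 5.17 and 4.49 CPM in young sham mice, 4.06, 1.60 and 6.24 in young ICH mice, 8.61, 11.2 and 5.66 in aged sham mice and 3.09, 7.11 and 3.30 in aged ICH mice. Slc5a7, which takes up choline, had 22.5, 11.2 and 7.33 CPM in young sham mice, 8.04, 2.30 and 12.3 in young ICH mice, 18.0, 27.1 and 15.1 in aged sham mice and 4.96, 18.9 and 7.76 in aged ICH mice. Both genes were lowest in young ICH replicate 2, and ICH and sham samples overlapped at each age.

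The means were lower after ICH but did not pass the test. For Chat the log2FC was −0.72 ± 0.48 (adjusted P = 0.324) in young and −0.92 ± 0.48 (adjusted P = 0.235) in aged mice, and −0.82 ± 0.34 (adjusted P = 0.0865) over both. For Slc5a7 it was −0.86 ± 0.60 (adjusted P = 0.350), −0.93 ± 0.60 (adjusted P = 0.331) and −0.89 ± 0.42 (adjusted P = 0.128). Chat (chr14:32408203-32465989, minus strand) overlaps the vesicular acetylcholine transporter gene Slc18a3 on the same strand and Gm2990 on the other, so that some of its counts are uncertain.

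Pvalb was not lower after ICH. It had 45.2, 31.1 and 39.8 CPM in young sham mice and 52.9, 35.6 and 44.0 in young ICH mice, and 36.1, 44.0 and 57.0 in aged sham mice and 58.1, 43.5 and 40.7 in aged ICH mice. The groups overlapped throughout. The log2FC was 0.19 ± 0.20 (adjusted P = 0.549) in young and 0.05 ± 0.20 (adjusted P = 0.892) in aged mice.

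Calb2 had 10.0, 5.42 and 6.60 CPM in young sham mice and 21.5, 7.16 and 11.2 in young ICH mice, with young ICH replicate 1 far above the rest. In aged mice it had 4.998, 8.70 and 9.85 CPM after sham and 5.10, 11.1 and 6.10 after ICH. The log2FC was 0.85 ± 0.42 (adjusted P = 0.177) in young and −0.08 ± 0.42 (adjusted P = 0.923) in aged mice. Th, the lowest of the genes, had between 2.58 and 3.37 CPM in the 6 sham samples and between 1.34 and 3.40 in the 6 ICH samples. The sham samples of Th thus lay within the range of the ICH samples, and its log2FC was −0.41 ± 0.32 (adjusted P = 0.402) in young and −0.37 ± 0.32 (adjusted P = 0.497) in aged mice.

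Cck had 130, 164 and 220 CPM in young sham mice and 112, 161 and 76.9 in young ICH mice, and 127, 91.4 and 125 in aged sham mice and 116, 78.1 and 99.5 in aged ICH mice. Vip had 24.0, 30.04 and 41.2 CPM in young sham mice and 20.1, 28.1 and 15.5 in young ICH mice, and 28.9, 19.6 and 25.8 in aged sham mice and 24.2, 19.0 and 24.0 in aged ICH mice. Both peptide genes were highest in young sham replicate 3, and ICH and sham samples overlapped. The log2FC in young mice was −0.55 ± 0.26 (adjusted P = 0.162) for Cck and −0.58 ± 0.24 (adjusted P = 0.110) for Vip. In aged mice it was −0.23 ± 0.26 (adjusted P = 0.611) for Cck and −0.14 ± 0.24 (adjusted P = 0.732) for Vip. Without young ICH replicate 2 both passed the test in young mice (Cck −0.86 ± 0.25, adjusted P = 0.0360, and Vip −0.83 ± 0.23, adjusted P = 0.0322).

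Of the 10 genes, 1 passed the test in young ICH mice and fell, where 9.23% of the 21495 genes tested fell. In aged ICH mice 1 fell, where 6.15% of all genes fell. Over both ages 2 fell, where 15.8% of all genes fell. These shares are near those of all genes. Groups without overlap, with ICH lower, were seen for 1 of the 10 genes in young mice (16.5% of all genes), in aged mice (17.3%) and over both ages (6.26%), in each case Sst. The study used DESeq2 with a fold-change rule, a fold change over 1.5 or under 0.67 with an unadjusted P under 0.05. Applied here to the edgeR fit, this rule was passed by none of the 10 genes in young mice (12.2% of all genes). Nos1 passed it in aged mice (10.1%) and Chat over both ages (12.4%), a comparison that the study does not report. The median log2FC of the 10 genes was −0.49 in young, −0.30 in aged and −0.39 over both ages, beside 0.02, 0.00 and 0.02 for all genes tested.

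**Figure D2:**
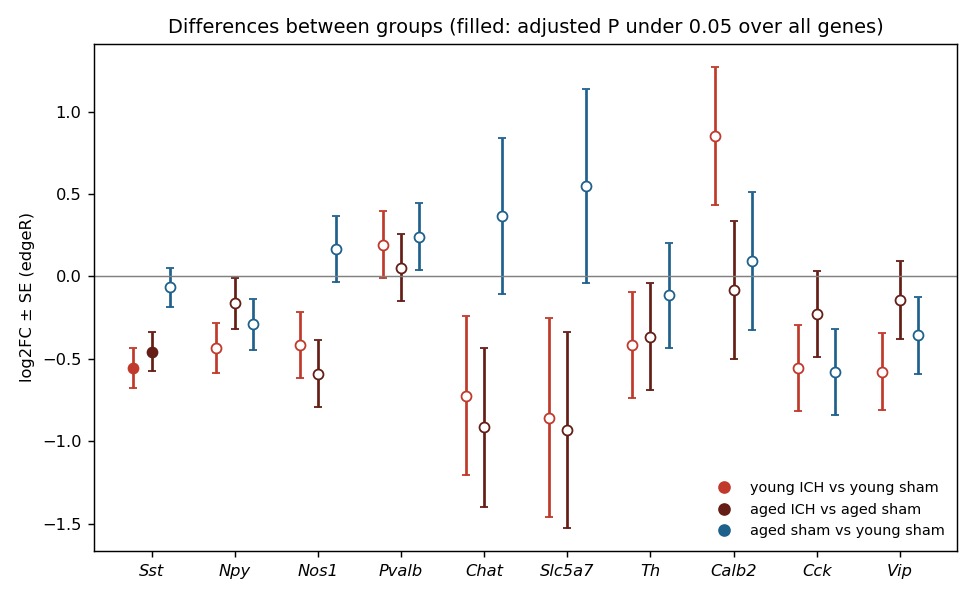
log2FC ± SE (edgeR, 3 samples per group) of the 10 interneuron genes for ICH against sham in young and in aged mice and for aged against young sham mice, with filled points where the adjusted P was under 0.05. The filled points are Sst in both ICH comparisons (−0.56 and −0.46), and the widest error bars are those of Chat, Slc5a7 and Calb2.

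Age was compared in sham mice, in ICH mice and as a difference in the response. No interneuron gene was called between aged and young sham mice, where 0.102% of all genes were called, and Cck was the only gene of the 10 at an unadjusted P under 0.05 (12.3% of all genes) and the only one within the fold-change rule (3.72%). All 3 aged sham samples, with at most 127 CPM of Cck, were below the 3 young sham samples, with at least 130 (log2FC −0.58 ± 0.26, unadjusted P = 0.0466, adjusted P = 0.399, edgeR). A lower group without overlap was seen in 11.2% of all genes. All 8 cortical excitatory neuron genes had a log2FC below 0 in the same comparison (median −0.40). With their mean as a covariate the log2FC of Cck was −0.15 ± 0.09 (adjusted P = 0.451, edgeR). Cck followed that mean closely (r = 0.968 over the 12 samples), so that this fit cannot separate Cck from it. The other genes had log2FC between −0.36 (Vip) and 0.55 (Slc5a7).

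Between aged ICH and young ICH mice none of the 10 genes passed the test, where 0.0558% of all genes did, and none had an unadjusted P under 0.05 (9.54% of all genes). The log2FC of Sst was 0.03 ± 0.12. In the interaction, the ICH response of aged minus that of young mice, 0 of the 10 genes and 0 of all genes were called by edgeR, and 0 of the 10 had an unadjusted P under 0.05. The interaction of Sst was 0.10 ± 0.17 and the largest among the 10 was that of Calb2 (−0.93 ± 0.59, adjusted P = 0.9999). At an unadjusted P under 0.05, 606 of all genes (2.82%) differed in response, and DESeq2 called 1 of all genes.

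Other genes of the same systems were counted from lists chosen by function. The lists were chosen with earlier results of these data known, so that their counts beside the shares of all genes are not a test. Among genes of GABA handling, the synthesising enzymes Gad1 (log2FC −0.63 ± 0.09) and Gad2 (−0.61 ± 0.21), the vesicular transporter Slc32a1 (−0.56 ± 0.15) and the degrading enzyme Abat (−0.32 ± 0.11) fell over both ages. Gad1 fell in both young (−0.62 ± 0.13, adjusted P = 0.0071) and aged mice (−0.64 ± 0.13, adjusted P = 0.0104), from a mean of 527 to 342 CPM and from 572 to 367 CPM. Gad1 had between 487 and 604 CPM in young sham and between 298 and 376 in young ICH mice, and between 526 and 626 CPM in aged sham and between 333 and 430 in aged ICH mice, without overlap at either age. Projection neurons use the same enzymes, and the means of their markers in the ICH samples, given above, were lower too. Their part in the result was not tested.

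Among 21 other interneuron genes, 8 fell in young and 5 in aged mice, where 9.23% and 6.15% of all genes fell, and over both ages 10 fell (15.8% of all genes) and 1 rose (median log2FC −0.26). Cortistatin (Cort), a peptide related to somatostatin, fell in young (−1.18 ± 0.26, adjusted P = 0.0109) and aged mice (−1.14 ± 0.26, adjusted P = 0.0182). Reln, an extracellular protein secreted by interneurons, fell from 94.3 ± 11.01 to 41.4 ± 4.51 CPM (SD, n = 3) in young mice (adjusted P = 0.0025, edgeR) and from 77.4 ± 6.42 to 42.4 ± 13.9 CPM in aged mice (adjusted P = 0.0133). Lhx6, the transcription factor of Sst and Pvalb interneurons, fell as well (−0.41 ± 0.12 in young and −0.52 ± 0.12 in aged mice). Chodl, a marker of the interneurons that share Sst, Npy and Nos1, fell over both ages (−0.88 ± 0.26, adjusted P = 0.0208), as did Pthlh (−1.05 ± 0.21, adjusted P = 0.0029), a hormone-like peptide of Pvalb interneurons. The gene that rose was Maf (0.39 ± 0.10, adjusted P = 0.0108), a transcription factor that is also made outside neurons.

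Of 10 genes that process and store neuropeptides, 7 fell in young (9.23% of all genes) and 5 in aged mice (6.15%). The prohormone convertase Pcsk1 fell from 54.1 ± 5.23 to 26.0 ± 8.57 CPM in young and from 43.1 ± 5.29 to 25.7 ± 4.06 CPM in aged mice (adjusted P = 0.0049 and 0.0304, edgeR), and the granin Vgf fell as well (log2FC −0.85 ± 0.11 and −0.57 ± 0.11). Of 19 receptor genes for the transmitters of these interneurons, 4 fell in young, 1 in aged mice and 9 over both ages, against the same shares and 15.8% over both. The somatostatin receptor Sstr2 fell in young mice (−1.34 ± 0.20, adjusted P = 0.0020), as did the cholecystokinin receptor Cckbr (−0.88 ± 0.23, adjusted P = 0.0216) and the muscarinic receptor Chrm1 (−0.53 ± 0.12, adjusted P = 0.0127). The nitric oxide receptor subunit Gucy1b1 fell in young (−0.52 ± 0.11, adjusted P = 0.0075) and aged mice (−0.44 ± 0.11, adjusted P = 0.0220).

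Of 10 other cholinergic genes, none passed the test at either age and 4 fell over both, where 15.8% of all genes fell. These were the vesicular glutamate transporter Slc17a8 (log2FC −0.84 ± 0.23), the acetylcholinesterase anchor Prima1 (−0.81 ± 0.21), the muscarinic receptor Chrm2 (−0.33 ± 0.09) and acetylcholinesterase itself (Ache, −0.30 ± 0.10). Slc18a3, which loads acetylcholine into vesicles, had a log2FC of −0.55 ± 0.36 (adjusted P = 0.257), and Lhx8, the transcription factor of cholinergic neurons, one of −0.61 ± 0.44 (adjusted P = 0.314). Of the 5 dopamine handling genes tested, Gch1, which makes the cofactor of Th, rose in young (1.54 ± 0.22, adjusted P = 0.0019) and aged mice (1.09 ± 0.22, adjusted P = 0.0106), and Qdpr, which recycles that cofactor, fell in aged mice (−0.57 ± 0.15, adjusted P = 0.0275).

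Among neurons of other kinds, all 14 projection neuron genes had a log2FC below 0 in young (median −0.91) and aged mice (median −1.09), but none passed the test at either age and 2 fell over both (15.8% of all genes). Of the 10 genes of all neurons, 3 fell in young (9.23% of all genes) and none in aged mice (6.15%), with medians of −0.22 and −0.18. Of the 8 cortical genes, 1 fell at each age, Nrn1 in both, against the same shares of all genes. The medians were −0.55 in young and −0.10 in aged mice.

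These counts moved with the scaling and the libraries. Scaled to the genes of all neurons, the median of all genes moved to 0.24 over both ages, and 2.85% of them fell and 35.5% rose. In that fit 6 of 21 other interneuron genes fell and 2 rose, 4 of 10 peptide processing genes fell and 1 rose, 4 of 19 receptor genes fell and none of 10 cholinergic genes passed. The median log2FC of the cholinergic genes was −0.34, beside −0.58 in the fit without this scaling, where that of all genes was 0.02. The distance between the 2 medians is nearly fixed, because the scaling shifts all genes nearly alike. Gad1 fell under that scaling, while Gad2, Slc32a1 and Abat did not pass. Without young ICH replicate 2 and aged ICH replicate 1, where 12.5% of all genes fell over both ages, 7 of 21 other interneuron genes, 6 of 10 peptide processing genes, 8 of 19 receptor genes and 1 of 10 cholinergic genes fell. Without them 5 of 8 cortical genes fell in young mice (8.71% of all genes, median log2FC −0.80) and none in aged mice (median −0.21). Young ICH replicate 2 had the highest mean of these cortical genes among the young ICH samples (6.12), so that leaving it out lowers them.

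**Figure D3:**
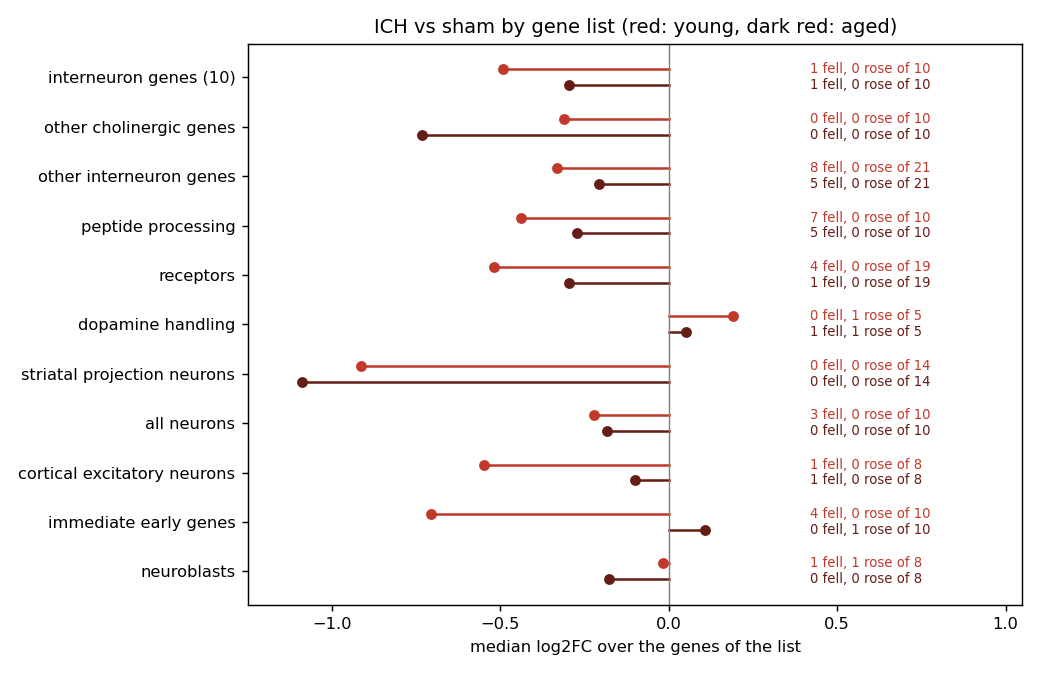
Median log2FC of the genes of each list for young ICH vs. young sham (red) and aged ICH vs. aged sham mice (dark red), with the number of genes that fell and rose at an adjusted P under 0.05. The lowest medians are those of striatal projection neuron genes (−0.91 and −1.09), of which none passed the test, whereas 7 and 5 of 10 peptide processing genes fell.

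The 10 genes varied together in sets. Over the 12 samples, log2 CPM of Cck correlated with that of Vip (Pearson r = 0.94) and Npy (0.92), and Vip with Npy (0.93). Chat correlated with Slc5a7 (0.98) and both with Nos1 (0.85 and 0.84), and Sst correlated with Nos1 (0.81) more than with its co-released peptide Npy (0.41). With the group means removed, Cck and Vip still varied together (0.97), as did Chat and Slc5a7 (0.97), and the sets ran opposite to each other (Cck against Chat −0.93 and against Slc5a7 −0.95). These are descriptions over 12 libraries that share their scaling.

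**Figure D4:**
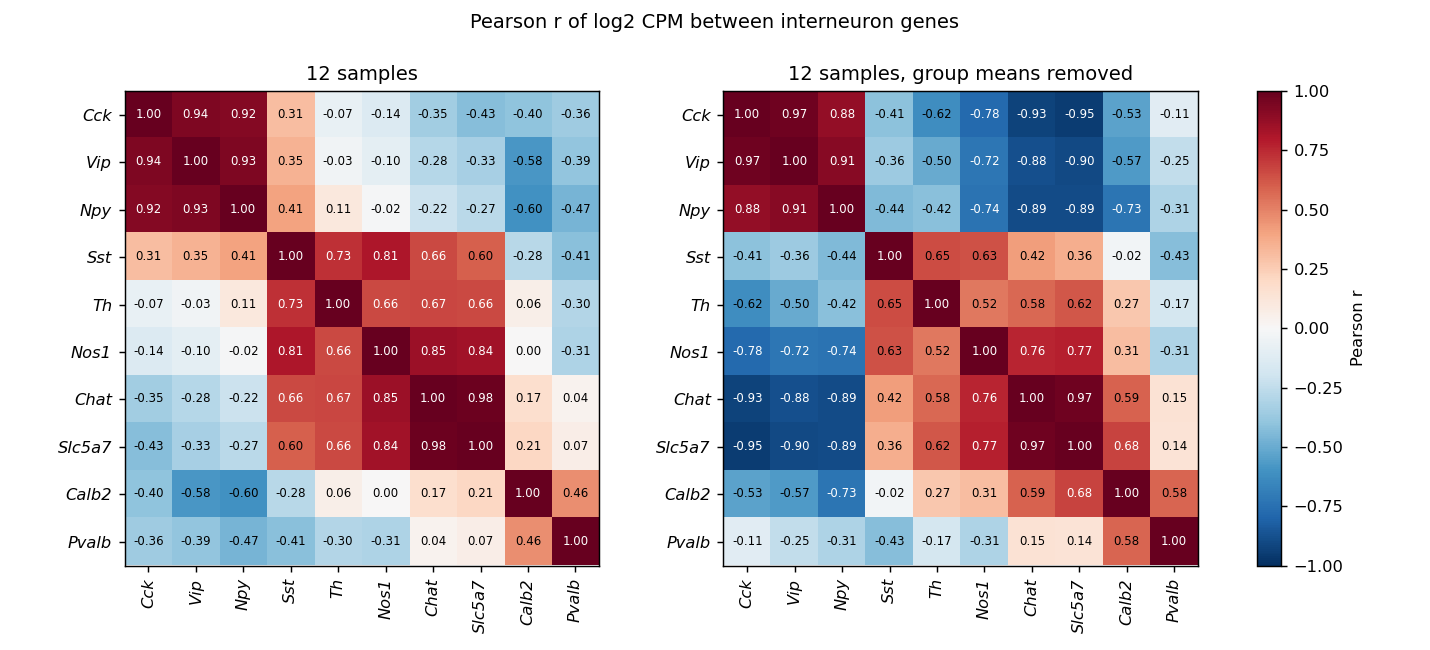
Pearson r between log2 CPM of the interneuron genes over the 12 samples (left) and over the same samples after the mean of each group was subtracted (right). Cck, Vip and Npy form one block (0.88 to 0.97 with group means removed) and Chat, Slc5a7 and Nos1 another, with values down to −0.95 between them.

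The first set followed the cortical markers from sample to sample. Against the mean log2 CPM of the 8 cortical excitatory neuron genes, r was 0.968 for Cck (Spearman rho 0.951), 0.948 for Vip (0.986) and 0.926 for Npy (0.923). Among 20 relations examined, the permutation P for r was 1e-05 for Cck and Vip, the smallest that 100000 permutations can give, and 4e-05 for Npy, with Benjamini-Hochberg adjusted values of 0.0001, 0.0001 and 0.000267. For rho the permutation P was 1e-05, 1e-05 and 6e-05. Without the 2 samples farthest from the median r was 0.954, 0.918 and 0.919. Within the 6 sham samples it was 0.969, 0.948 and 0.982 (adjusted permutation P = 0.0278 for each). Within the 6 ICH samples it was 0.963, 0.950 and 0.897 (adjusted permutation P = 0.0444, 0.0278 and 0.0556). The permutations of 12 samples moved them across the 4 groups, so that their P also reflects differences between groups. With group means removed r was 0.967, 0.945 and 0.897. Sst did not follow these markers in this way (r = 0.27, rho = 0.30, permutation P = 0.401 and 0.343).

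The second set followed the projection neuron markers. Against the mean of the 14 genes r was 0.881 for Chat (rho 0.930), 0.867 for Slc5a7 (0.867) and 0.860 for Nos1 (0.923), with permutation P of 0.00011, 0.00029 and 0.00041 and adjusted values of 0.00055, 0.00116 and 0.00137. For rho the permutation P was 4e-05, 0.00051 and 2e-05. Without aged ICH replicate 1 and young ICH replicate 2, the samples farthest from the median, r was 0.924, 0.808 and 0.834. Within the 6 sham samples it was 0.907, 0.772 and 0.916 (adjusted permutation P = 0.0913, 0.156 and 0.0833). Within the 6 ICH samples it was 0.817, 0.837 and 0.905 (adjusted permutation P = 0.111, 0.0952 and 0.0444). With group means removed r was 0.888, 0.930 and 0.776, beside 0.712 for Th and 0.463 for Sst. For Th r was 0.802 and rho 0.643 (permutation P = 0.00326 and 0.0282, adjusted 0.00931 and 0.0627), and r was 0.609 without the same 2 samples, 0.212 within sham and 0.760 within ICH samples. For Sst r was 0.730 and rho 0.804 (permutation P = 0.00544 and 0.00256, adjusted 0.0136 and 0.00731), and r was 0.819 without the same 2 samples, 0.802 within sham and 0.350 within ICH samples.

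**Figure D5:**
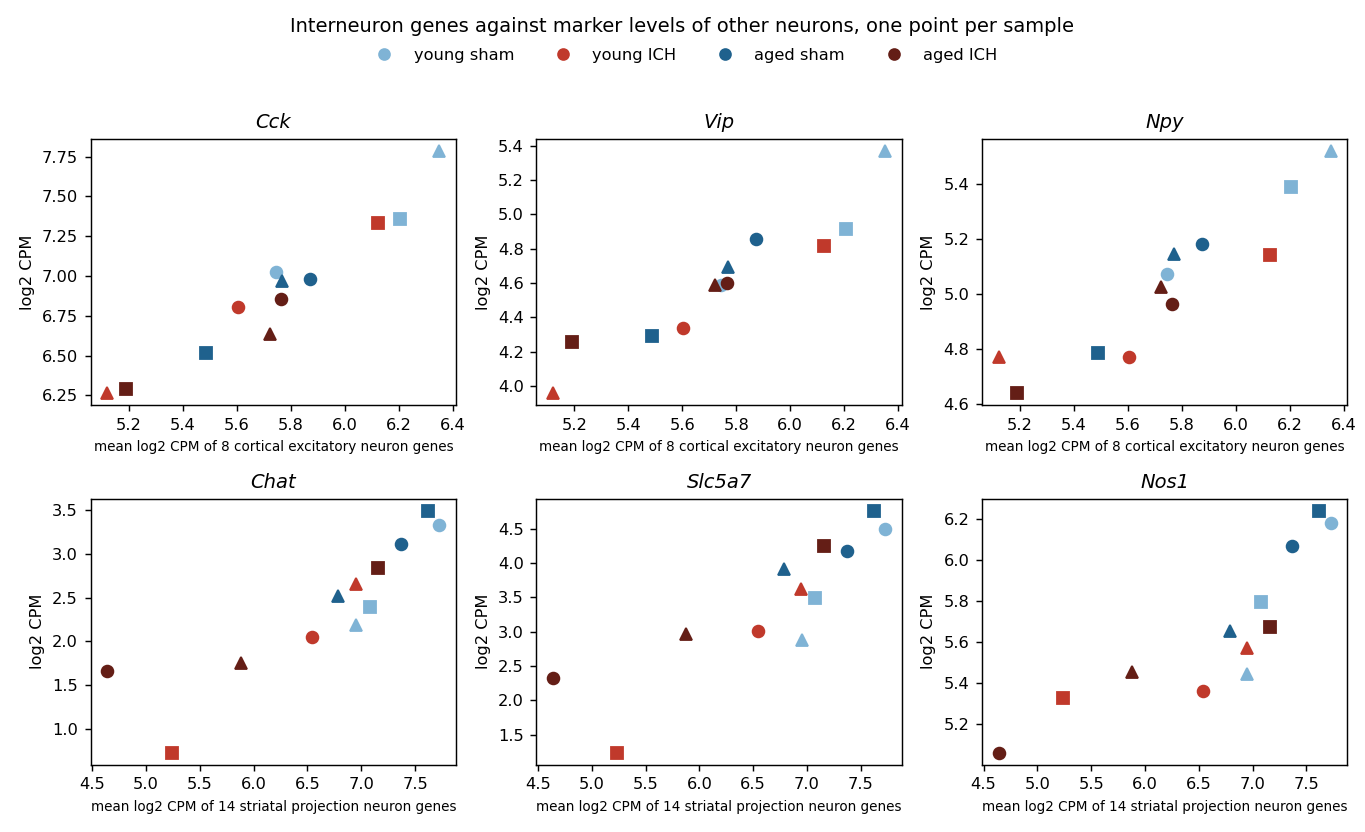
log2 CPM of Cck, Vip and Npy against the mean log2 CPM of 8 cortical excitatory neuron genes (top) and of Chat, Slc5a7 and Nos1 against that of 14 striatal projection neuron genes (bottom), 1 point per sample, with the replicates as circle, square and triangle and colours for the groups. Sham and ICH samples lie along the same rising band in each panel (r from 0.860 to 0.968).

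The marker levels bear on the tests between groups. In a fit with the cortical mean as a covariate, which was added after the data were seen and takes the covariate from the same libraries, Chat fell in young (log2FC −1.74 ± 0.23, adjusted P = 0.0017) and aged mice (−1.28 ± 0.19, adjusted P = 0.0024), and Slc5a7 fell as well (−2.17 ± 0.23 and −1.47 ± 0.20, adjusted P = 0.0011 and 0.0018). Sst passed at each age (−0.65 ± 0.13 and −0.49 ± 0.11, adjusted P = 0.0070 and 0.0127, edgeR). Nos1 passed at each age too (−0.67 ± 0.17 and −0.68 ± 0.15, adjusted P = 0.0197 and 0.0108). The covariate itself differed between groups, with a mean of 6.10 in young sham and 5.62 in young ICH mice (5.71 and 5.56 in aged mice). With group means removed, Chat and Slc5a7 ran opposite to it (r = −0.950 and −0.959). Neither gene passed without the covariate, and their log2FC with it depends on that relation. In the same fit 14 of 14 projection neuron genes fell in young and 13 in aged mice, where 9.38% and 10.4% of all genes fell. Cck, Vip and Npy did not pass the test there, and their log2FC in young mice was −0.08 ± 0.09, −0.15 ± 0.11 and −0.17 ± 0.10. These genes followed the covariate closely (r = 0.968, 0.948 and 0.926). The fit therefore takes up most of their difference by its design and cannot test it. Without young ICH replicate 2 and aged ICH replicate 1, which had the lowest projection neuron means, Sst, Npy, Cck and Vip fell in young mice (−0.61, −0.56, −0.86 and −0.83, adjusted P = 0.0156, 0.0431, 0.0393 and 0.0424). Without them 769 of 21878 genes were called in aged mice, against 2828 of 21495 with all 12 samples. None of the 10 passed at that age without these libraries, and the log2FC of Sst was −0.38 ± 0.14 (adjusted P = 0.137, edgeR). Over both ages Nos1 did not pass without them (−0.40 ± 0.15, adjusted P = 0.0815), nor when scaled to the genes of all neurons (−0.27 ± 0.17, adjusted P = 0.228).

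The 3 genes whose log2 CPM was most like that of each interneuron gene were taken over the 12 samples from all genes tested. For Sst they were Tyro3 (r = 0.978), Smarca1 (0.975) and Mn1 (0.966), and for Nos1 they were Ccno (0.973), Trim35 (0.969) and Bcr (0.952). For Npy they were Serpinb8 (0.974), Lamp5 (0.969) and Hecw1 (0.967), and Lamp5 (0.958) was also among those of Vip, with Gm11549 (0.969) and Mef2c (0.963). For Cck they were Vxn (0.978), Gm48957 (0.974) and Gfra2 (0.972). For Slc5a7 they were Slc10a4 (0.984), a transporter of cholinergic and monoaminergic vesicles, Cacna2d2 (0.982) and Chat (0.978), and for Chat they were Slc5a7 (0.978), Usp3 (0.971) and Grb7 (0.970). For Calb2 they were Vangl1 (0.970), Wnt3 (0.949) and Tcf7l2 (0.937), for Th Gm7244 (0.945), Fgf3 (0.937) and Gm38048 (0.927), and for Pvalb, with the lowest values, Gm13619 (0.890), Gm10157 (0.883) and Chic2 (0.872).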

How the data were processed

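Per the labels, the authors extracted RNA with TRIzol and prepared the 12 libraries with the NEBNext Ultra kit. Reads were aligned by the authors with HISAT2 to GRCm38.p6 and counted per gene with featureCounts, and the deposited table holds raw counts and the authors' FPKM. The strand setting and the treatment of reads with several matches were not given in the sources used here. The authors' own fold changes and P values are in the same table and were not used.

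From the counts, log2FC, SE and P were computed with edgeR 4.0.16 (R 4.3.3, quasi-likelihood test, TMM scaling, filterByExpr with a minimum count of 10) in one fit of 12 samples and 4 groups. P was adjusted by Benjamini-Hochberg over 21495 genes, and a gene was called at an adjusted P under 0.05. The deposited FPKM served for levels between genes and, as log2(FPKM + 1), for limma 3.58.1. DESeq2 1.42.0, other scalings and filters, a replicate block and each sample left out were alternatives. A covariate of cortical markers and the removal of 2 ICH libraries were chosen after seeing the data. Named genes were the 10 genes, genes of the function lists and the 3 genes most like each. The genes and lists were chosen with earlier results of these data known. Tested on simulated data of 21495 genes for young ICH vs. young sham, edgeR called 58% of 100 genes changed by a log2FC of 1 and 89% of 100 changed by 2. Correlations were tested by permutation (100000 permutations for 12 samples, all 720 orders for 6). A part of the function lists is not reported here.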

Additional observations from a re-analysis of the deposited data

How the results depend on the processing

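The count of called interneuron genes depended on the setting. In young mice (1 gene) it was 0 when scaled to genes of all neurons and by the fold-change rule, 2 with DESeq2, and 4 with the cortical covariate and without the 2 ICH libraries lowest in projection neuron genes. It ranged from 1 to 4 with each sample left out (4 without young ICH replicate 2, 2 without young sham replicate 1). Of all 21495 genes, 4110 were called there with the settings used above, 5065 with that scaling and 3890 with the covariate, and 2612 passed the fold-change rule. DESeq2 called 4717 of 39887, and the fit without those libraries called 3897 of 21878. With each sample left out the number called ran from 1858 to 4225, the highest without young ICH replicate 2. In aged mice (1 gene) the interneuron count was 0 with that scaling, with only the groups compared, with limma on FPKM and without those libraries, 2 without the low-count filter and with DESeq2, and 4 with the covariate. It ranged from 0 to 2 with each sample left out. Of all 21495 genes, 2828 were called there with the settings used above, 2029 with that scaling, 2901 with limma and 4232 with the covariate. With only the groups compared 2481 of 20661 were called, and without those libraries 769 of 21878. Of 39887 genes, 2442 were called without the filter and 3647 with DESeq2. With each sample left out the number called ran from 679 to 3327. Over both ages (2 genes) the interneuron count was 0 with that scaling, 1 with limma and by the fold-change rule, 4 without the filter and 5 with the covariate. It ranged from 2 to 5 with each sample left out (5 without young ICH replicate 2). Of all 21495 genes, 6973 were called there with the settings used above, 8244 with that scaling, 7124 with limma and 7218 with the covariate. The fold-change rule was passed by 2660 of them. Without the filter 6330 of 39887 were called, and without young ICH replicate 2 the number was 7112 of 22055. Between aged and young sham mice (0 genes) the interneuron count was 1 by the fold-change rule (3.72% of all genes). The cause was not tested. With the replicate number as a replicate block the counts stayed at 1, 1 and 2. Samples with the same number did not deviate together (mean r −0.05 over 18 pairs), so the numbers were not taken as pairs.

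Of 955 repeats over 42 single-gene results, 880 kept direction and side of the threshold, 38 newly passed, 17 no longer passed and 20 changed sign, none of which passed the test. For aged ICH vs. aged sham these were Npy (0.024), Calb2 (0.11) and Vip (0.045) when scaled to genes of all neurons, Pvalb (−0.11) and Calb2 (0.14) without the 2 ICH libraries, and with samples left out Pvalb (−0.12 to 0.24) and Calb2 (−0.49 to 0.13). For aged vs. young sham they were Sst (0.094) and Th (0.043) with that scaling, Nos1 (−0.038), Chat (−0.30), Slc5a7 (−0.29), Calb2 (−0.32) and Vip (0.015) with the covariate, and with samples left out Sst (−0.16 to 0.014) and Calb2 (−0.10 to 0.39). The signs under that scaling follow from a shift common to all genes, whose median moved to 0.19 and 0.17 in these comparisons, above each of the values given. Chat and Th, with as few as 48 counts in a library, had the least precise counts.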
